A study of Homo sapiens with 10 samples.

Results

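The carcinoembryonic antigen family was followed at the RNA level in H441, an established human lung adenocarcinoma line, through 9 of its genes: CEACAM1, CEACAM5, CEACAM6, CEACAM7, PSG1, PSG4, PSG5, PSG6 and PSG9. The 9 members were taken by name from 62709 genes in a table of read counts. The set was chosen by the levels of CEACAM6 and PSG1 in the knockout libraries, which were known to be lower than in wild type, so every value of the members in that comparison is given as a description without a test. RNA sequencing libraries were available for 4 sets of H441 cells, 10 libraries in all. The 3 libraries named WT here came from untreated wild-type cells, and the 3 named KO came from cells in which TET1, a DNA demethylase gene, had been knocked out of that line with CRISPR-Cas9. The 2 named OE came from cells transfected transiently with a plasmid for full-length human TET1. The 2 named Lipo carry the same untreated wild-type label as WT, but a different title that the labels do not explain, and they served as the control for OE. Whether Lipo cells received a plasmid is not known from these labels. In OE against Lipo, TET1 and transfection with a plasmid therefore cannot be told apart. Whether the knockout cells were 1 clone or a pool is not given in the sources used here, and neither is whether libraries of a group came from separate cultures. All p-values therefore measure the spread between these libraries alone.

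The family consists of cell-surface and secreted proteins built from immunoglobulin domains, encoded in a cluster on chromosome 19. CEACAM1 spans the membrane and signals through its cytoplasmic tail. CEACAM5 (carcinoembryonic antigen, a serum tumour marker), CEACAM6 and CEACAM7 are held at the surface of epithelial cells by a glycosylphosphatidylinositol (GPI) anchor, and CEACAM5 and CEACAM6 are often raised in adenocarcinomas, including those of the lung. The pregnancy-specific glycoproteins (PSG) are secreted, and their main source is the syncytiotrophoblast of the placenta.

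All 9 members lie within 1.6 Mb of chromosome 19 (GRCh38, GENCODE release 29). CEACAM7 (ENSG00000007306) lies at chr19:41673307-41706976 on the minus strand, CEACAM5 (ENSG00000105388) at chr19:41708585-41729798 on the plus strand, and CEACAM6 (ENSG00000086548) at chr19:41750977-41772208 on the plus strand. CEACAM1 (ENSG00000079385) lies further along, at chr19:42507304-42561234 on the minus strand. The PSG members follow on the minus strand, with PSG1 (ENSG00000231924) at chr19:42866464-42879822 and PSG6 (ENSG00000170848) at chr19:42902079-42919563. PSG5 (ENSG00000204941) lies at chr19:43166256-43186536, PSG4 (ENSG00000243137) at chr19:43192702-43207299 and PSG9 (ENSG00000183668) at chr19:43211791-43269530.

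The promoters of the 4 CEACAM members are shown because these genes had different levels and patterns over the groups, although their sequences upstream of the start are closely related. The RefSeq table (GRCh38.p14) held promoters for 6 of the 9 members. PSG1, PSG6 and PSG9 were not among them. Each line gives the 250 bases before the start annotated in RefSeq, 5′ to 3′ on the gene's own strand. For CEACAM1, CEACAM6 and CEACAM7 these stretches lie inside the GENCODE spans given above, which begin further upstream. The same holds for the promoter of PSG4, which is not shown. Capitals mark every match to 4 motifs searched on both strands, an interferon response core, an E-box, a GC box and a TATA box. The stretches are chr19:42528482-42528731 on the minus strand for CEACAM1, chr19:41708376-41708625 on the plus strand for CEACAM5, chr19:41755280-41755529 on the plus strand for CEACAM6 and chr19:41688271-41688520 on the minus strand for CEACAM7.
CEACAM1: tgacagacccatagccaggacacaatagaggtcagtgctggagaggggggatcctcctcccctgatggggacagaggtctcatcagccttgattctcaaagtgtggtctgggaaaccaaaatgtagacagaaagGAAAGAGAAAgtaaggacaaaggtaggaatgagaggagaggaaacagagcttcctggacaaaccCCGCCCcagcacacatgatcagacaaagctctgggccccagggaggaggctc
CEACAM5: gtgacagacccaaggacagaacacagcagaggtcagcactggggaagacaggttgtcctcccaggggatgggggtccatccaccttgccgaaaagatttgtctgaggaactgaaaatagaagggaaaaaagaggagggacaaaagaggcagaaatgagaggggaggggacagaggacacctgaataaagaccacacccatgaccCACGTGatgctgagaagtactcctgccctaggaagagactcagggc
CEACAM6: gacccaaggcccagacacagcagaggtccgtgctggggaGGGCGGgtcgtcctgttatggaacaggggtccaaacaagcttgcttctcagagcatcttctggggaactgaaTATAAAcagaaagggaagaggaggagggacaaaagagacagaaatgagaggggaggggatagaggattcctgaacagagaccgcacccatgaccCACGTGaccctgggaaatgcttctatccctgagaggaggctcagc
CEACAM7: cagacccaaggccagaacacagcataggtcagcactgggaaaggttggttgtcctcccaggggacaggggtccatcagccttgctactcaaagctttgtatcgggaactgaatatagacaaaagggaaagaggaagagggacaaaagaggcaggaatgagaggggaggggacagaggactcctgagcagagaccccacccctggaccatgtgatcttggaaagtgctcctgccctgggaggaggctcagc

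Over the whole window of 300 bases, from 250 before the start to 50 after, CEACAM5 and CEACAM7 were 81.4% identical, CEACAM6 and CEACAM7 80.5%, and CEACAM5 and CEACAM6 74.7%. CEACAM1 stood further off, at 65.6% to CEACAM5, 68.2% to CEACAM6 and 71.2% to CEACAM7. Among the 6 members with a promoter, the interferon response core, spelled GAAANNGAAA, was found in CEACAM1 alone, beginning 116 bases before the start. The same motif occurs in 3.57% of the 35116 promoters of the table. The E-box, CACGTG, was found in CEACAM5, 46 bases before the start, and in CEACAM6, 45 bases before it, and occurs in 7.26% of all promoters. The GC box, spelled GGGCGG and present in 45.0% of promoters, was found in CEACAM1 (52 bases before the start), CEACAM6 (211) and PSG4 (44). The TATA box, spelled TATAAA and present in 11.5% of promoters, was found in CEACAM6 at 139 bases before the start. None of the matches overlapped another. They are matches of letters and were not tested as binding sites.

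TET1 acts on methylated cytosine in CpG pairs, and the members' windows held few of these. CEACAM1 had 3, CEACAM5 2, CEACAM6 5, CEACAM7 1, PSG4 5 and PSG5 1, against a median of 14 over all promoters. As few as 5 were found in 33.7% of promoters and as few as 1 in 11%. Methylation was not measured in these libraries.

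The libraries held 20994462 to 25981097 counted reads each. TET1 itself had 0 to 7 reads per library in WT, 0 to 8 in KO and 0 to 1 in Lipo, so its RNA does not check the knockout, whereas in OE it reached 882 to 957 CPM (counts scaled to the adjusted library size). Of the markers of lung epithelium, EPCAM averaged 578 to 690 CPM over the 4 groups and NKX2-1 214 to 270 CPM, while SCGB1A1 was at 0 in every library. The surfactant genes differed more between groups: SFTPA2 averaged 4209 CPM in WT, 4464 in KO, 1645 in Lipo and 1007 in OE, its near copy SFTPA1 4047, 4212, 2234 and 1914, and SFTPB 195, 49.5, 75.9 and 29.7. Of the 9 members, 5 passed the filter on low counts (CEACAM1, CEACAM5, CEACAM6, PSG1 and PSG6). CEACAM7, PSG4, PSG5 and PSG9 did not, and are given as reads.

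CEACAM1 was the member that passed the test in OE against Lipo. Its level was 99.1 CPM in OE 1 and 102 CPM in OE 2, against 11.2 CPM in Lipo 2 and 16.7 CPM in Lipo 3. In WT it was 12.3, 15.4 and 15.3 CPM, and in KO 8.21, 8.24 and 8.36 CPM. The OE libraries lay far above the other 8, Lipo overlapped WT, and KO was lowest. With means of 101 ± 2.09 CPM in OE and 13.9 ± 3.91 CPM in Lipo (SD, n = 2 each), CEACAM1 rose 7.23-fold, a log2 difference of 2.85 (SE 0.20, adjusted p = 1.68e-07 by edgeR's quasi-likelihood test over 15832 genes). It was 1 of the 5 tested members to pass. Over all genes tested in that comparison, 12.3% passed in either direction, 6.79% rose and 5.53% fell. In bulk RNA, more or fewer cells with a transcript and more or less of it per cell cannot be told apart.

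The difference stood under every alternative fit and with any 1 library left out, with log2 values from 2.58 to 3.16 and a highest adjusted p of 1.34e-05. In KO, CEACAM1 averaged 8.27 ± 0.0794 CPM against 14.3 ± 1.81 CPM in WT (SD, n = 3 each), which is 1.73-fold lower (log2 difference -0.79, SE 0.16). Lipo differed from WT by -0.04 on the log2 scale (SE 0.18). An antisense gene, LIPE-AS1, runs through CEACAM1 on the other strand. Its mean level was 0.732 CPM in WT, 0.855 in KO, 1.03 in Lipo and 0.72 in OE, with a log2 difference between OE and Lipo of -0.51 (SE 0.60, adjusted p = 0.639).

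**Figure D1:**
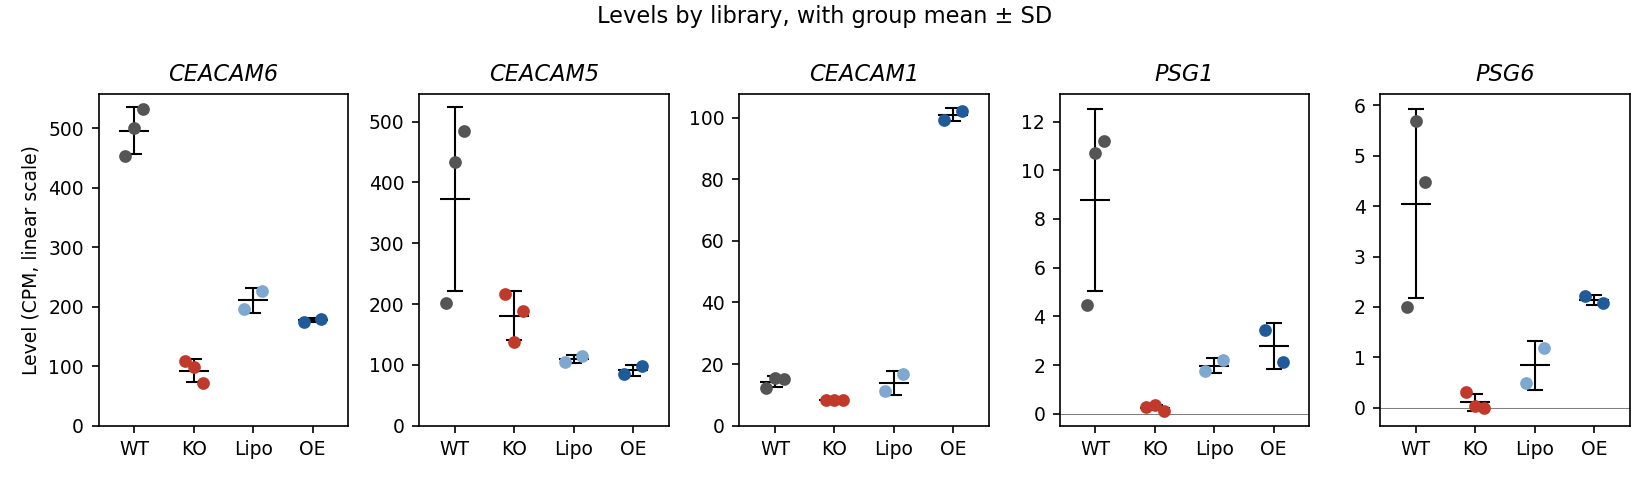
Levels of the 5 members that passed the filter on low counts, in CPM on a linear axis that differs between panels. Each point is 1 library, and bars give the group mean ± SD over 3 WT, 3 KO, 2 Lipo and 2 OE libraries. CEACAM1 reaches 99.1 to 102 CPM in OE, and PSG1 and PSG6 lie close to 0 in KO. CEACAM6 is highest in WT and lowest in KO, with Lipo and OE close together in between.

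CEACAM6, an anchored adhesion molecule without a cytoplasmic tail, was the most abundant member in WT. It measured 454, 501 and 532 CPM in WT, 196 and 226 CPM in Lipo, 175 and 179 CPM in OE, and 108, 98.8 and 71.2 CPM in KO. The WT libraries lay above all others and the KO libraries below, with Lipo and OE close together in between. The mean in KO was 92.7 ± 19.2 CPM against 496 ± 39.4 CPM in WT (SD, n = 3 each), 5.35-fold lower (log2 difference -2.42, SE 0.15). In this comparison 12.6% of all genes tested passed in either direction, 7.45% lower and 5.13% higher. Lipo, at 211 ± 21.1 CPM (SD, n = 2), was itself 2.35-fold below WT (log2 difference -1.23, SE 0.17), although both sets carry the untreated wild-type label. The KO and Lipo differences share the WT libraries, so they are not independent of each other.

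OE, at 177 ± 3.24 CPM (SD, n = 2), was not shown to differ from Lipo in CEACAM6, with a log2 difference of -0.26 (SE 0.17, approximate 95% interval -0.60 to 0.09, adjusted p = 0.385). In a fit of these 4 libraries alone the same difference gave an adjusted p of 8.41e-04. That fit called 5664 genes in all, against 1950 when the spread was estimated from all 10 libraries.

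CEACAM5, its neighbour on the plus strand, was also highest in WT, but lower in Lipo and OE than in KO. WT gave 201, 433 and 484 CPM, KO 217, 138 and 188 CPM, Lipo 105 and 114 CPM, and OE 84.8 and 97.8 CPM. WT 1 stood apart from the other two WT libraries and inside the KO range, so WT and KO overlapped, whereas Lipo and OE lay below both. The means were 373 ± 151 CPM in WT and 181 ± 40.0 CPM in KO (SD, n = 3 each), 2.06-fold lower in KO (log2 difference -1.04, SE 0.25). Without WT 1 the log2 difference was -1.34, and with all 5 libraries labelled wild type as the control it was -0.56.

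Lipo had 110 ± 6.24 CPM of CEACAM5 (SD, n = 2), 3.39-fold below WT (log2 difference -1.76, SE 0.29). Between OE, at 91.3 ± 9.21 CPM (SD, n = 2), and Lipo the log2 difference was -0.27 (SE 0.30, approximate 95% interval -0.86 to 0.33, adjusted p = 0.63). A fit of OE and Lipo alone gave an adjusted p of 0.00419.

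**Figure D2:**
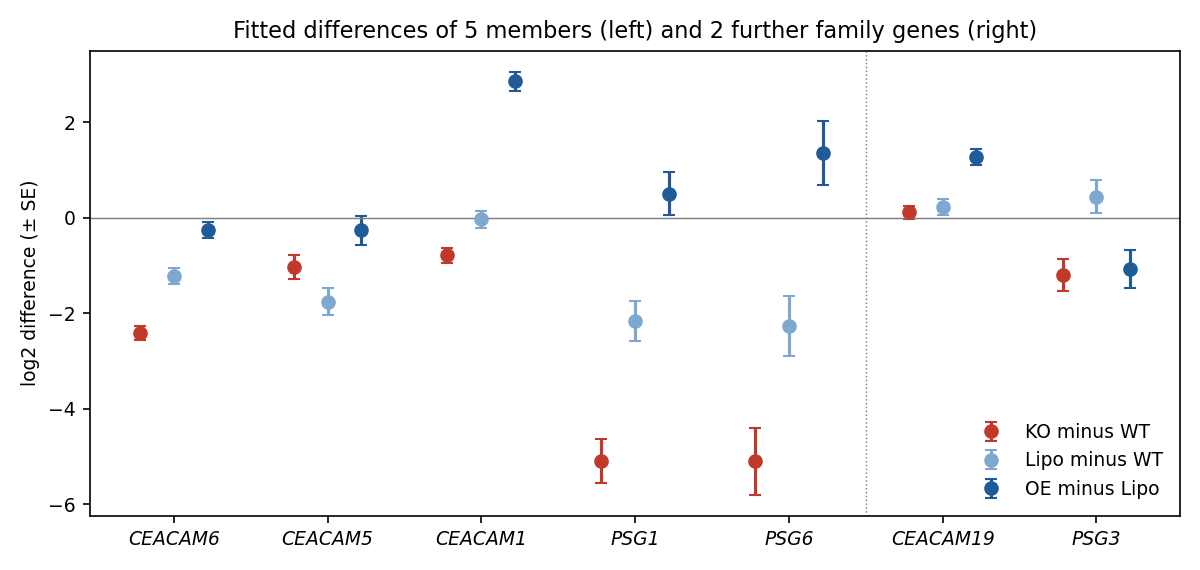
Fitted log2 differences (y axis, ± SE) of 5 members and of CEACAM19 and PSG3, in KO minus WT (red), Lipo minus WT (light blue) and OE minus Lipo (dark blue). CEACAM1 stands at 2.85 in OE minus Lipo, and PSG1 and PSG6 stand at -5.10 in KO minus WT, while CEACAM6, CEACAM5, PSG1 and PSG6 are also below 0 in Lipo minus WT.

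Because CEACAM5 and CEACAM6 differ in length, their balance was taken from levels per kilobase of exon. In WT, CEACAM6 had 184 ± 14.6 and CEACAM5 128 ± 51.8 CPM per kilobase, and in KO the order was the other way round, with 34.3 ± 7.11 and 62.3 ± 13.8 (SD, n = 3 each). The ratio of CEACAM5 to CEACAM6 per length was 0.411, 0.802 and 0.844 in WT, 1.86, 1.30 and 2.45 in KO, 0.498 and 0.469 in Lipo, and 0.451 and 0.507 in OE. All 3 KO libraries thus had more CEACAM5 than CEACAM6, and all 7 others had less. CEACAM19, a family gene outside the 9 members, is not part of the sums that follow. It had 8.49 CPM per kilobase in WT, 9.18 in KO, 9.85 in Lipo and 23.8 in OE. CEACAM1 had 3.87, 2.23, 3.75 and 27.1 in the same order. Among the 9 members, CEACAM1 became a sizeable part of the summed RNA in OE. It made up 21.9% and 21.3% of the summed level of the 9 members per kilobase in OE, against 2.67% and 3.49% in Lipo, 1.11% to 1.36% in WT and 1.89% to 2.57% in KO. The sum itself was 122 and 129 CPM per kilobase in OE and 113 and 129 in Lipo. WT summed to 243 to 373 and KO to 86.6 to 117.

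**Figure D3:**
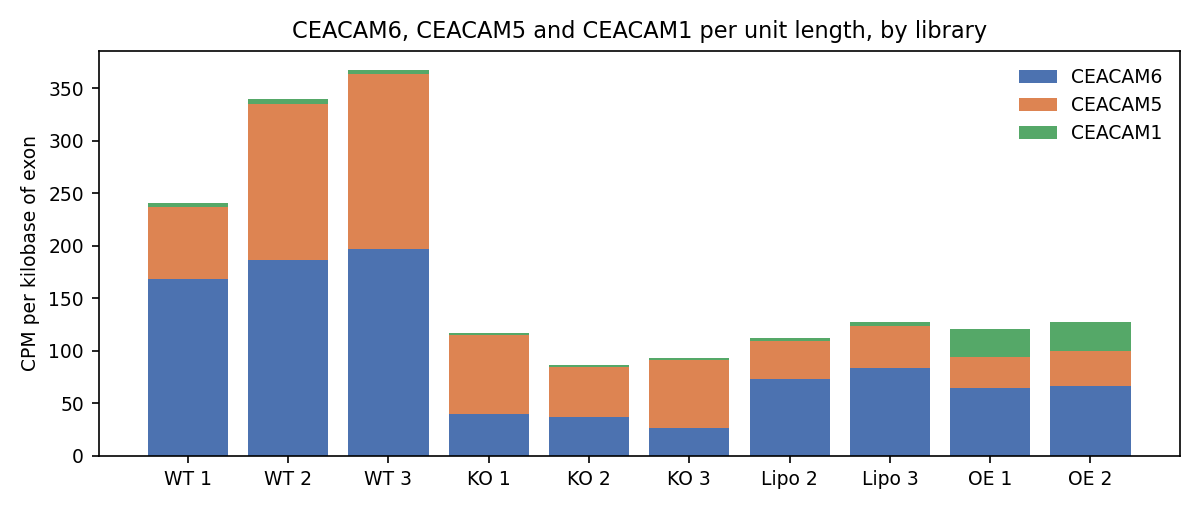
CPM per kilobase of exon (y axis) of CEACAM6, CEACAM5 and CEACAM1, stacked for each of the 10 libraries on the x axis. CEACAM1 makes up 21.9% and 21.3% of all members' summed level in the 2 OE libraries, and CEACAM5 takes the larger part in the 3 KO libraries.

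CEACAM7, which lies beside CEACAM5 and has the promoter most like it, had 1 read in a single WT library and 0 in every other library. No reads in KO allow a level of up to 0.042 CPM over the group, in Lipo 0.0653 CPM and in OE 0.0714 CPM (3 counts over each group's reads, counting error only). It was not detectable in any condition other than by that 1 read.

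PSG1, a secreted glycoprotein of pregnancy, was present at low level in WT and nearly absent in KO. WT held 103, 279 and 256 reads (4.46, 10.7 and 11.2 CPM), and KO 6, 9 and 3 reads (0.265, 0.352 and 0.130 CPM). Lipo gave 1.75 and 2.19 CPM and OE 3.45 and 2.12 CPM. The WT libraries lay above all others and the KO libraries below, whereas Lipo and OE overlapped. The mean was 8.78 ± 3.75 CPM in WT and 0.249 ± 0.112 CPM in KO (SD, n = 3 each), 34.2-fold lower by the fit (log2 difference -5.10, SE 0.46). Pooled over libraries, 18 reads in KO corresponded to 0.252 CPM (exact Poisson 95% interval 0.150 to 0.399) and 638 reads in WT to 8.85 CPM (8.17 to 9.56). These intervals cover counting error only, and the WT libraries themselves all lay outside that of WT.

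Lipo, at 1.97 ± 0.311 CPM of PSG1 (SD, n = 2), was 4.46-fold below WT (log2 difference -2.16, SE 0.42). OE, at 2.78 ± 0.944 CPM (SD, n = 2), differed from Lipo by 0.50 on the log2 scale (SE 0.45, approximate 95% interval -0.38 to 1.38, adjusted p = 0.528). Set against WT in place of Lipo, OE was lower, at -1.66, so the direction in OE depends on the control.

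PSG6 was likewise highest on average in WT and lowest in KO, at a lower level. It measured 1.99, 5.69 and 4.47 CPM in WT, 0.309, 0.039 and 0 CPM in KO (7, 1 and 0 reads), 0.500 and 1.19 CPM in Lipo, and 2.22 and 2.07 CPM in OE. KO was lowest, Lipo came next, and OE overlapped WT only through WT 1, the WT library that was also lowest for CEACAM5 and PSG1. The mean of 0.116 ± 0.168 CPM in KO was 34.3-fold below the 4.05 ± 1.88 CPM of WT (SD, n = 3 each; log2 difference -5.10, SE 0.70), and without KO 1 the log2 difference was -7.29. Pooled levels were 0.112 CPM in KO (exact Poisson 95% interval 0.0484 to 0.221) and 4.12 CPM in WT (3.66 to 4.61), with counting error only and not the spread between libraries. Lipo stood 4.82-fold below WT (log2 difference -2.27, SE 0.63). OE against Lipo gave 1.35 on the log2 scale (SE 0.67, approximate 95% interval 0.03 to 2.67, adjusted p = 0.222), with both OE libraries above both Lipo libraries. The quasi-likelihood test gave an unadjusted p of 0.0638, so the approximate interval, built on a normal quantile, is too narrow where it leaves out 0. That value was 0.84 without Lipo 2 and 2.08 without Lipo 3, and -0.92 with WT as the control.

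The other 3 PSG members were close to the limit of detection. PSG4 had 14 reads in WT, 13 in KO, 1 in Lipo and 3 in OE. Its pooled level was 0.194 CPM in WT (exact Poisson 95% interval 0.106 to 0.326) and 0.182 CPM in KO (0.0970 to 0.312), intervals that overlapped almost wholly. PSG5 had 5 reads in WT, 4 in KO, 0 in Lipo and 2 in OE. PSG9 had 6 in WT, 2 in KO, 16 in Lipo and 7 in OE, and its reads in Lipo were spread over both libraries, at 0.375 and 0.319 CPM. The pooled level of PSG9 was 0.348 CPM in Lipo (exact Poisson 95% interval 0.199 to 0.565), above the intervals of WT (0.0305 to 0.181) and KO (0.00339 to 0.101) and overlapping that of OE (0.067 to 0.343). These intervals cover counting error only, and PSG4 and PSG5 could not be ordered between groups at this depth. PSG9 had 0 reads in OE 1 and 7 in OE 2, and its order between groups was not tested.

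PSG genes are near copies of each other. Of all distinct 50-base stretches of their GENCODE transcripts, 23.1% were shared with another gene's transcripts for PSG1, 16.5% for PSG6, 15.5% for PSG4, 17.2% for PSG5 and 34.6% for PSG9, so reads may have been split or lost between copies. For CEACAM1 the share was 3.29%, for CEACAM6 6.99%, for CEACAM5 16.3% and for CEACAM7 0%. Most of the CEACAM5 share, 15.2%, was with a gene that spans CEACAM5 and CEACAM6 (ENSG00000267881), which had 1 read in all libraries. How reads with several matches were counted is not given in the sources used here.

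CEACAM6 and PSG1 varied together over the 10 libraries, with a Pearson correlation of log2 CPM of 0.95, and PSG1 and PSG6 likewise at 0.95. CEACAM6 and PSG6 gave 0.89 and CEACAM5 and CEACAM6 0.53. CEACAM1 followed neither CEACAM6, at 0.13, nor CEACAM5, at -0.46. These are descriptions over libraries that share the 4 groups, with no test. The set was chosen because CEACAM6 and PSG1 were both lower in KO than in WT. A high value for that pair was therefore partly built in.

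Beyond the members, 13 other CEACAM and PSG genes were looked up. Of these, 6 had no reads, 4 had 1 to 9, and 3 had 10 or more: CEACAM19 with 6114, PSG3 with 526 and PSG8 with 13. CEACAM19, which lies outside the main cluster, rose in OE to 53.5 ± 0.544 CPM from 22.2 ± 0.344 CPM in Lipo (SD, n = 2 each), a log2 difference of 1.27 (SE 0.17, adjusted p = 1.76e-04). Between KO and WT it differed by 0.11 (SE 0.14, adjusted p = 0.673). PSG3, the PSG gene nearest to CEACAM1 on the chromosome, fell in KO to 1.19 ± 0.359 CPM from 2.73 ± 0.383 CPM (SD, n = 3 each), a log2 difference of -1.20 (SE 0.34, adjusted p = 0.0314). Without WT 2, WT 3, KO 2 or KO 3 that call was lost. In OE against Lipo it gave -1.07 (SE 0.40, adjusted p = 0.101).

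Genes around the family moved in both directions. Between the outermost members or within 500 kb of them, 44 protein-coding neighbours outside the family were tested. Over all genes tested, 6.79% rose and 5.53% fell in OE against Lipo, and 5.13% rose and 7.45% fell in KO against WT. These shares belong beside the counts of this list and of every list below. In OE against Lipo, 4 of the 44 neighbours rose and 2 fell, with a median log2 difference of 0.14 against -0.01 over all genes tested. PLAUR, the urokinase receptor, rose to 242 ± 8.94 CPM from 50.1 ± 4.98 CPM (SD, n = 2 each), a log2 difference of 2.27 (SE 0.17, adjusted p = 2.57e-07), and its call alone among the 6 was made whichever library was left out. AXL, a receptor tyrosine kinase, rose by 2.0 and CNFN fell by 2.16 on the log2 scale. With WT as the control AXL differed by 0.37 (adjusted p = 0.41). In KO against WT, 6 neighbours rose and 5 fell, with a median of 0.03. With 1 library left out the rises numbered 3 (without WT 1 or WT 2, among others) to 10 (without KO 1), and 3 rises and 3 falls were called whichever library was left out. PLAUR was among those that fell (log2 difference -0.93, adjusted p = 3.24e-04), ETHE1 rose by 1.06, and RPS19, the gene tested next after CEACAM6, rose by 0.67. The lowest neighbours, named after their values were seen, were B3GNT8, tested shortly before CEACAM5, and CD79A, tested next after RPS19. Their log2 differences were -2.49 (SE 0.66) and -2.23 (SE 0.51). The fitted values were of a size with that of CEACAM6 (-2.42, SE 0.15), but less precise. CD79A was among the 3 falls called whichever library was left out, and B3GNT8 was not.

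**Figure D4:**
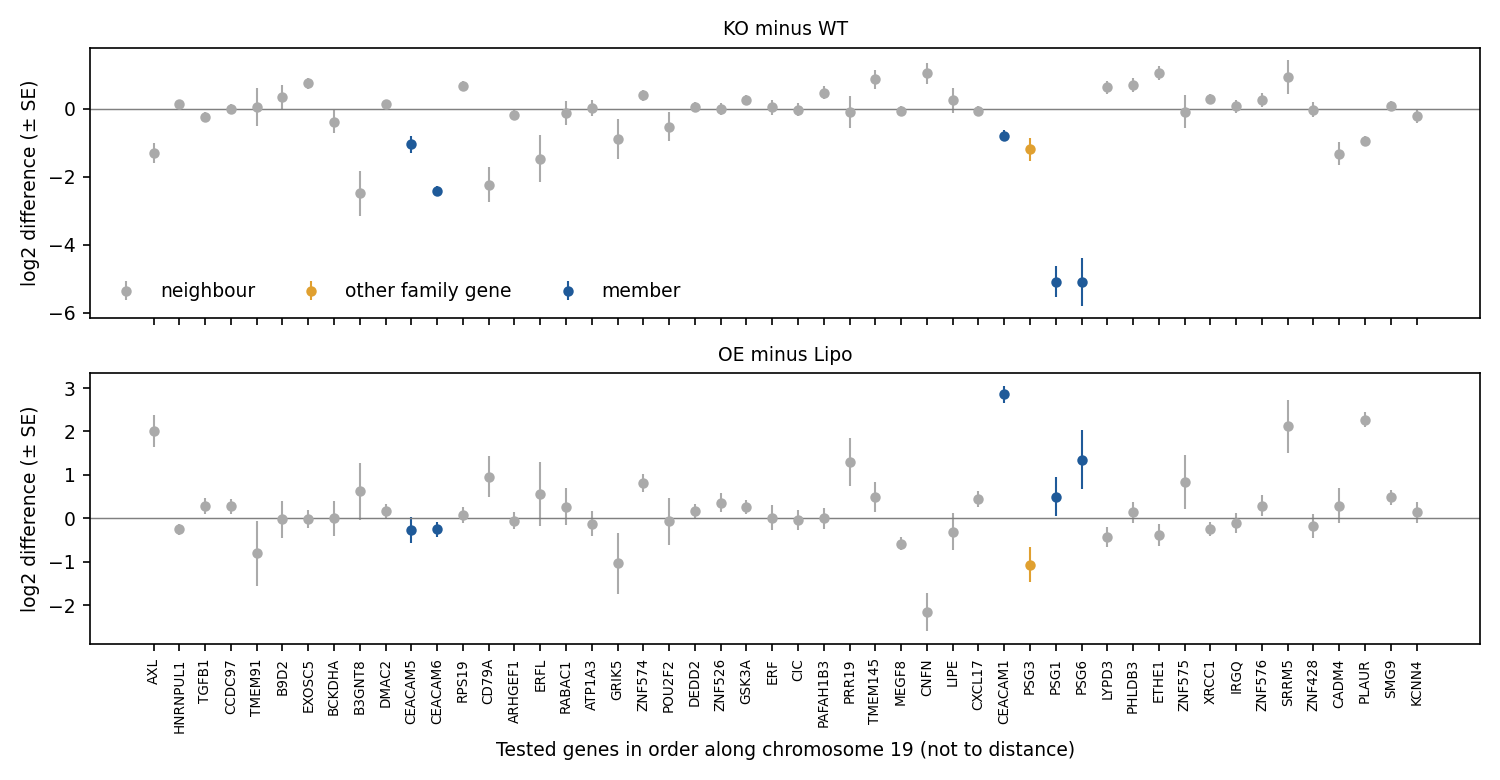
Log2 differences (y axis, ± SE) of tested genes in their order along chromosome 19, in KO minus WT above and OE minus Lipo below. Members are dark blue, the further family gene PSG3 is orange and neighbours are grey. PSG1 and PSG6 are the lowest in KO, CEACAM6 stands at -2.42 near the neighbours B3GNT8 (-2.49) and CD79A (-2.23), and CEACAM1 is the highest in OE. The neighbours' median is 0.03 in KO and 0.14 in OE.

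Transcription factors reported to act on CEACAM or PSG promoters were compared next, with 13 of 14 tested. In OE against Lipo, 7 rose and 0 fell, with a median log2 difference of 0.47. IRF1, which binds interferon response elements, rose from 13.9 ± 1.17 CPM to 73.0 ± 1.90 CPM (SD, n = 2 each), a log2 difference of 2.39 (SE 0.20, adjusted p = 9.07e-07). NFKB1, an NF-kappa-B subunit, rose by 0.99 (adjusted p = 7.80e-04) and KLF4, an epithelial zinc-finger factor, by 1.31 (adjusted p = 0.0011). IRF1, NFKB1 and KLF4 passed whichever library was left out, and the other 4 calls did not. In KO against WT, 0 rose and 2 fell. SMAD3, a transducer of TGF-beta signals, fell by 0.59 and RXRA, a nuclear receptor partner, by 0.57, the latter call lost without WT 2, WT 3 or KO 1. IRF1 differed by 0.29 (adjusted p = 0.262).

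Interferon-stimulated genes moved with CEACAM1 in OE. All 23 tested, of 26 listed, rose there, also with any 1 library left out, with a median log2 difference of 6.01, or 5.81 when IFI27 and XAF1, which had no reads in 1 of the groups, were set at their lower bounds. OAS2, an antiviral synthetase, averaged 1562 ± 16 CPM in OE and 2.15 ± 0.847 CPM in Lipo (SD, n = 2 each). IFIT1, an antiviral RNA-binding protein, averaged 651 ± 2.59 CPM in OE and 4.41 ± 0.825 CPM in Lipo. In KO against WT, 4 rose and 2 fell, with a median of 0.08. IFIT2 rose by 1.31 and OAS1 fell by 0.88. The part of these genes in the level of CEACAM1 was not tested.

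The genes whose pattern over the 10 libraries was most like that of CEACAM1 were PARP12, OAS1, TSC22D1, FTSJ3 and CXCL16, with Pearson correlations of log2 CPM from 0.988 to 0.992. PARP12 averaged 389 CPM in OE and 64.2 CPM in Lipo, and OAS1 771 CPM and 31.0 CPM. Among those most like CEACAM6 were ALDH1A3, SHANK2, MYOF and ACSL5, from 0.972 to 0.981. MYOF, a membrane repair protein, averaged 836 CPM in WT, 457 in KO, 635 in Lipo and 541 in OE. Most like PSG1 were ERRFI1, DSP, ALDH1A3, IL18R1 and TSHZ1, from 0.969 to 0.973. ALDH1A3, a retinaldehyde dehydrogenase on both lists, averaged 88.9, 31.4, 57.0 and 54.3 CPM in WT, KO, Lipo and OE. These genes were picked for their likeness, so the values carry no test.

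**Figure D5:**
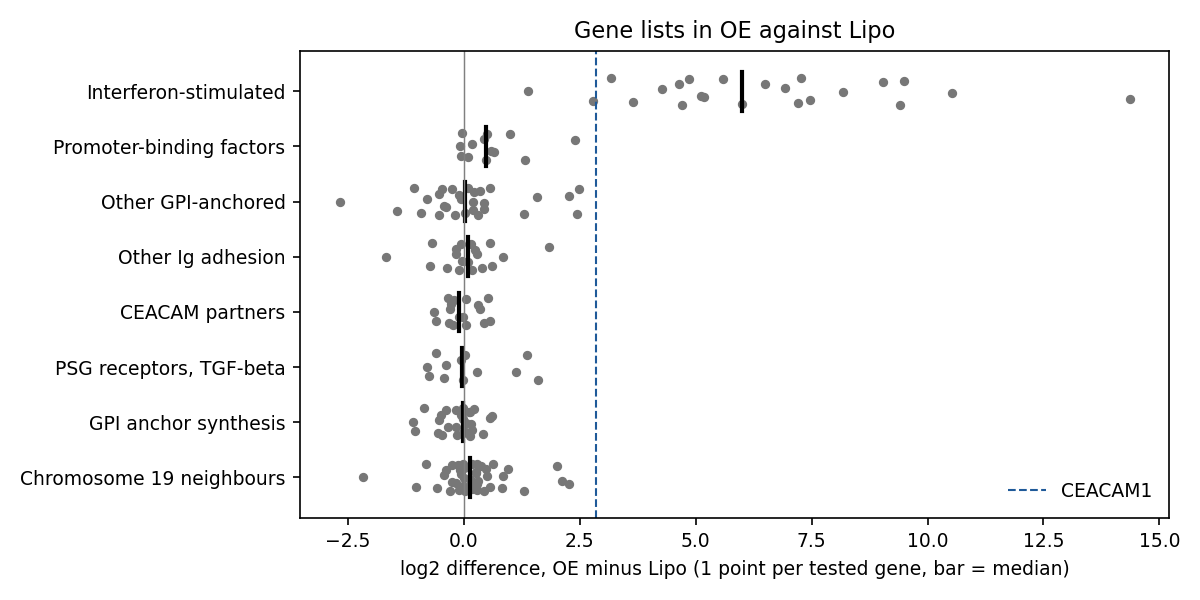
Log2 differences (x axis) in OE minus Lipo for genes of 8 lists, 1 point per tested gene with the list's median as a black bar. CEACAM1, the dashed line, stands at 2.85, within the interferon-stimulated genes (median 6.01) and above every tested gene of the other 7 lists drawn. Markers of other cell types are not drawn, and of these ITGAM (4.30, SE 0.82) and HLA-G (3.02, SE 0.91) stand higher. Both are at low level, with means of 0.158 CPM in Lipo and 3.15 in OE for ITGAM, and 0.156 and 1.28 for HLA-G. Points of genes with no reads in 1 group are fitted values and not bounds.

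Among CEACAM ligands and signalling partners, 17 of 20 were tested. In OE against Lipo 2 rose (LYN, a SRC-family kinase, by 0.57, and ANXA2 by 0.53) and 1 fell (PTPN11, the phosphatase SHP2, by 0.65), with a median of -0.11. None of these 3 calls was made without any 1 of the 4 OE and Lipo libraries. In KO against WT, 1 rose and 4 fell, with a median of -0.23. YES1, another SRC-family kinase, fell to 21.4 ± 3.83 CPM from 61.7 ± 6.0 CPM (SD, n = 3 each), a log2 difference of -1.53 (SE 0.15, adjusted p = 7.38e-06). EGFR, the epidermal growth factor receptor, fell by 0.83, and FLNA, an actin crosslinker, by 0.76. CALM3, a calmodulin gene, rose by 0.47. The calls of FLNA and CALM3 were lost without WT 2, and that of FLNA also without WT 3.

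PSG receptors and TGF-beta ligands were lower in KO more often than higher. Of 12 tested among 15 listed, 1 rose and 7 fell there, with a median log2 difference of -0.63 against 0 over all genes tested. ITGB1, an integrin chain that PSG1 can bind in its complex with ITGA5, fell from 541 ± 29 CPM to 306 ± 76.2 CPM (SD, n = 3 each), a log2 difference of -0.82 (SE 0.15, adjusted p = 0.00221). ITGA5 fell by 0.88 and TGFB2 by 1.52. The surface proteoglycan SDC3 fell by 0.76, and these 4 calls were made whichever library was left out. Against all 5 libraries labelled wild type, TGFB2 gave -1.1 (adjusted p = 0.117). In OE against Lipo, 2 rose and 2 fell. ITGA5 rose from 41.9 ± 2.27 CPM to 128 ± 13.9 CPM (SD, n = 2 each), a log2 difference of 1.60 (SE 0.22, adjusted p = 2.11e-04). TGFB2 rose by 1.37 and SDC1 fell by 0.79, calls that were lost without 1 or another of the OE or Lipo libraries. With WT as the control TGFB2 turned to -0.08 (adjusted p = 0.889) and SDC1 gave -0.33 (adjusted p = 0.138).

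Other GPI-anchored proteins, which share the membrane anchor of CEACAM5, CEACAM6 and CEACAM7, moved both ways. Of 29 tested among 34 listed, 5 rose and 4 fell in OE against Lipo, and 5 rose and 9 fell in KO against WT. With 1 library left out, the falls in OE came to 0 without Lipo 3 or OE 1 and the rises in KO to 0 without WT 2, and 3 rises in OE and 5 falls in KO were called whichever library was left out. BST2, an antiviral tether, rose from 67.5 ± 3.55 CPM to 377 ± 1.94 CPM in OE (SD, n = 2 each; log2 difference 2.48, SE 0.23, adjusted p = 2.65e-06). ALPG, a placental-type alkaline phosphatase, rose by 1.30 in OE and fell by 2.31 in KO. PRSS21, a serine protease, had 856 reads in WT and 0 in KO, at least 282-fold lower against a floor of 3 counts over the group. NT5E, the ectonucleotidase CD73, fell in KO by 1.39. Of the enzymes that make and attach the anchor, 27 of 29 were tested. In OE against Lipo 1 rose and 2 fell, none of them with every library left out in turn, and in KO against WT 2 rose and 1 fell. Over all genes tested, 12.3% passed in either direction in OE against Lipo and 12.6% in KO against WT. MPPE1, which remodels the anchor, fell from 16 ± 0.335 CPM to 6.52 ± 1.41 CPM in KO (SD, n = 3 each; log2 difference -1.29, SE 0.18, adjusted p = 2.57e-04).

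Markers of the cell types in which these genes are best known were low. Of 18 trophoblast and placental markers 11 were at 0 in every library, among them CGA and CGB3 of chorionic gonadotropin. Their summed level was 1.90 to 4.08 CPM in WT, 1.06 to 2.30 in KO, 2.25 to 3.51 in Lipo and 4.78 to 5.01 in OE. Only 2 were tested, and HLA-G rose in OE (log2 difference 3.02, adjusted p = 0.0424), a call lost without OE 2, Lipo 2 or Lipo 3, among others.

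Of 13 granulocyte markers, 5 were at 0, among them ELANE and PRTN3, and the sum was 2.81 to 3.4 CPM in WT, 3.2 to 4.63 in KO, 4.0 to 4.47 in Lipo and 5.24 to 8.28 in OE. ITGAM rose in OE (log2 difference 4.30, adjusted p = 0.0032, lost without OE 1). Of 14 intestinal markers, 8 were at 0, including CDX1 and CDX2, and the sum was 5.84 to 8.85 CPM in WT, 7.81 to 11.6 in KO, 10.4 to 12.6 in Lipo and 4.55 to 6.06 in OE. GPA33, an intestinal surface antigen, fell in OE (log2 difference -1.37, adjusted p = 0.011, lost without Lipo 2 or OE 2).

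Of the fibroblast, endothelial and immune markers, 6 of 14 were tested, and COL1A1 and LUM among them moved with the groups. List sums were 179 to 292 CPM in WT, 72.1 to 79.7 in KO, 172 to 186 in Lipo and 347 to 357 in OE. COL1A1 carried most of each sum, with means of 231 CPM in WT, 63.9 in KO, 154 in Lipo and 308 in OE. COL1A2 and COL3A1 averaged 0.228 CPM or less in every group, and DCN, PDGFRA and PDGFRB were among the markers at 0 throughout. In KO 2 fell and in OE 2 rose, COL1A1 and LUM both times. COL1A1, a collagen chain, averaged 63.9 ± 6.22 CPM in KO against 231 ± 65.2 CPM in WT (SD, n = 3 each; log2 difference -1.86, SE 0.18, adjusted p = 5.93e-06), and its rise in OE was 0.99 on the log2 scale, a call lost without Lipo 2, Lipo 3 or OE 2, and 0.41 (adjusted p = 0.125) with WT as the control. Lung and airway epithelial markers, 11 of 14 tested, summed to 19590 to 21643 CPM in WT, 17045 to 21559 in KO, 15850 to 16111 in Lipo and 16527 to 16695 in OE. In KO 0 rose and 3 fell, with SFTPB, a surfactant protein, lower by a log2 difference of -1.97 and CDH1, E-cadherin, by one of -0.75. In OE 1 rose and 2 fell, and SFTPB was lower by a log2 difference of -1.35. The part of any of these marker lists in the members' levels was not tested.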

How the data were processed

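The authors deposited 1 table of raw read counts per gene, whole numbers without normalization. Named in the submitters' processing notes, without role or order, are GRCh38, edgeR, featureCounts, HISAT2 2.1.0 and FastQC. The labels' protocols name a stranded total RNA kit. Annotation release, strand setting and handling of multiply matching reads are not given in the sources used here. Of 62710 entries, 1 held no values, and 2 columns belonging to no sample were not used.

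Counts were fitted with edgeR 4.0.16 in R 4.3.3 (filterByExpr on the 4 groups, TMM, robust quasi-likelihood, all 10 libraries, 6 residual degrees of freedom). Tests were two-sided, with Benjamini-Hochberg adjustment over 15832 genes and a threshold of 0.05. The script was tested on simulated data. CPM use the TMM-adjusted library size, and levels per kilobase use merged exon lengths of GENCODE 29. Members and gene lists were chosen with earlier results of these data known. Other genes were named by smallest p, up to 4 per list and comparison, those most like a member by the highest correlation, 5 each (not all are reported here), and counts per list stand beside all genes tested. Alternatives were RLE scaling, DESeq2 1.42.0, other filters, other controls, only the groups compared, each library left out, and a replicate block. Same-numbered WT and KO libraries correlated at 0.328, 0.0577 and 0.185 in their deviations from the group means, and differently numbered ones at -0.238 to 0.092. Numbers were not taken as pairs in the main fit, and a shared effect of the replicate number is not excluded. Poisson intervals and floors (3 counts) cover counting error only. The approximate intervals of log2 differences use the SE and a normal quantile, and are narrower than the quasi-likelihood test implies.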

Additional observations from a re-analysis of the deposited data

How the results depend on the processing

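CEACAM1 kept its rise in OE against Lipo under all 17 alternatives, between 2.58 and 3.16 on the log2 scale. The number of genes passing in OE against Lipo (1950) came to 5664 in a fit of only the groups compared, 3953 with WT as the control, and 673 to 2657 with 1 library left out, where 673 was without Lipo 3, 695 without OE 1, 769 without Lipo 2 and 792 without OE 2. Leaving 1 library in a group assumes that it varies like the others. For KO against WT (1992) it was 1216 with only the groups compared and 1125 to 2297 with 1 library left out, 1125 without WT 2 and 1238 without WT 3. With WT as the control in place of Lipo, PSG1 turned to -1.66, PSG6 to -0.92, TGFB2 to -0.08, DPM3 to 0.13, S100A9 to 0.34 and VIL1 to 0.83. CEACAM6 then gave -1.49 and CEACAM5 -2.03. With 1 library left out, VIL1 ranged from -0.55 to 0.08 (without Lipo 2) and PLAC1 from -0.12 (without OE 1) to 0.68. Against all 5 libraries labelled wild type, KO stood at -2.04 for CEACAM6 and -4.56 for PSG1. The cause of these shifts was not tested.

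With the replicate number as a block in the fit of all 10 libraries, 2678 genes passed in OE against Lipo and 2874 in KO against WT, and with the block in a fit of WT and KO alone 3368 passed. Not every WT and KO library correlated best with its own number (WT 2 did so with KO 3), and OE and Lipo share only number 2. Several list counts moved by over 1.5 times in a fit of only the groups compared. There, 5 CEACAM partners rose and 6 fell in OE against Lipo, as did 11 and 6 other GPI-anchored genes, 4 and 7 of anchor synthesis, and 11 and 4 neighbours, while all 23 interferon-stimulated genes rose. In KO against WT 0 PSG receptor or TGF-beta genes rose and 4 fell, 1 and 7 other GPI-anchored genes, and 3 and 3 neighbours.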

Other observations

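Other adhesion genes of the immunoglobulin superfamily, which sit beside the CEACAM proteins at epithelial contacts, were counted as a further list chosen with earlier results known. Of 19 tested among 22 listed, 3 rose and 3 fell in OE against Lipo, with a median log2 difference of 0.08. Over all genes tested there, 6.79% rose and 5.53% fell. ICAM1, the ligand of leukocyte integrins, rose 3.55-fold to 1775 ± 15.9 CPM in OE (SD, n = 2), a log2 difference of 1.83 (SE 0.18, adjusted p = 6.10e-06). VTCN1, an immune checkpoint ligand, fell by 1.68 (adjusted p = 0.00152). These 2 calls were made whichever library was left out. NECTIN2 rose by 0.85 and PVR by 0.61, calls lost without Lipo 2, among others.

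In KO against WT, 3 of the 19 rose and 5 fell, with a median of -0.08, while 5.13% of all genes tested rose and 7.45% fell. VTCN1 rose from 5.66 ± 1.5 CPM to 17.8 ± 3.34 CPM (SD, n = 3 each), a log2 difference of 1.65 (SE 0.22, adjusted p = 1.57e-04), the direction opposite to that of CEACAM6. BCAM, a laminin receptor, rose by 1.22. NECTIN1 fell by 1.08 and ALCAM by 0.66.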
